A study of Mus musculus with 87 samples.

Results

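The forebrain and the neural tube are the front and the trunk portions of the same embryonic tube, and at embryonic day 11.5 (E11.5) of the mouse both hold dividing progenitors and newly born neurons. All 8 RNA-seq libraries of the line LocusB8, of 64 RNA-seq libraries and 87 samples in the series, were compared here: 4 from Embryonic Forebrain against 4 from Embryonic Neural tube, chosen by the tissue and line that the sample labels give. Each tissue had 2 libraries of homozygous embryos, which lack the TAD boundary B8 on both copies of chromosome 19, and 2 wildType libraries of littermates with an intact boundary. All embryos were of the FVB strain at embryonic day 11.5, and no agent was given. A TAD boundary is the border between neighbouring domains of self-contacting chromatin, and the series deleted single boundaries in mice to learn what follows for genes and development. The B8 line descends from 1 founder. The deletion holds no measured gene, so no transcript checks the genotype labels, and genotype entered the comparison as a covariate. Homozygous and wildType are used as labelled, and the labels of the forebrain libraries may be reversed between the genotypes, so the direction of any genotype difference in forebrain is uncertain. Values of a tissue are given in the order homozygous 1, homozygous 2, wildType 1 and wildType 2. These numbers were given within each tissue and genotype to name the libraries and do not pair forebrain with neural tube.

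Regional identity along the embryonic tube rests on transcription factors. Factors such as Otx2, Lhx2 and Emx1 pattern the forebrain, while the Hox genes, which lie in clusters and are switched on in the order of their position, set position from the hindbrain to the tail. Retinoic acid made by the somites, the blocks of mesoderm beside the trunk neural tube, is an upstream signal for the Hox genes, and FGF8 and Wnt proteins from signalling centres pattern the forebrain. Spinal motor neurons and interneuron classes are born in the trunk neural tube, whereas the forebrain forms the cortex dorsally and the basal ganglia ventrally.

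The forebrain libraries held 21319920 to 23237748 gene counts each and the neural tube libraries 17373490 to 22067310. Mitochondrial transcripts took 0.69 to 0.92% of the forebrain counts, against 0.73 to 0.92% of the neural tube counts, and no 2 libraries were copies of each other. The first principal component of log expression carried 73.9% of the variance and separated the tissues. The second carried 8.1% and set homozygous 1 of each tissue (33.9 in forebrain, 42.8 in neural tube) apart from the other 6 libraries (-19.2 to -0.91). Ddx3y, a Y-linked gene, was high in wildType 2 of each tissue (52.4 CPM in forebrain, 58.9 CPM in neural tube, where CPM is the count scaled to library size) and at most 0.224 CPM elsewhere, so each tissue had 1 male and 3 female libraries by this gene. In neural tube homozygous 2, Gm42418, an annotated transcript that overlaps ribosomal RNA sequence and was singled out after its values were seen, reached 43380 CPM, against 336 to 537 CPM in the other neural tube libraries. The number of genes called, 5732 with all libraries, was 4679 without neural tube homozygous 2 and 5992 without both homozygous 1 libraries.

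The neural tube libraries held transcripts of tissues that surround the trunk neural tube. Of 17 markers of somite and skeletal muscle, 16 were higher in neural tube and 0 were higher in forebrain, and their summed level was 48.9 to 64.4 CPM in forebrain, against 998 to 1180 CPM in neural tube. Myog, the transcription factor that drives muscle differentiation, had 0.142, 0, 0.0902 and 0.0429 CPM in forebrain, against 76.9, 107, 115 and 113 CPM in neural tube (log2 fold change -10.44 ± 0.27 SE, adjusted p = 5.3e-09). The groups were far apart, and every neural tube library exceeded every forebrain library. Of 23 tested markers of neural crest and sensory ganglia, 21 were higher in neural tube, with a summed level of 166 to 222 CPM in forebrain, against 702 to 895 CPM in neural tube. Sox10, the factor of crest-derived glia, had 0.473, 1.24, 0.902 and 0.643 CPM in forebrain, against 35.7, 29.04, 37.1 and 30.98 CPM in neural tube. Mesenchyme and meninges markers (16 of 20 higher in neural tube, 1 higher in forebrain) summed to 1310 to 2040 CPM in forebrain, against 2350 to 4190 CPM in neural tube. Epithelium markers (11 of 12 higher in neural tube) summed to 56.5 to 103 CPM in forebrain, against 193 to 251 CPM in neural tube. The figures label this list surface and olfactory epithelium, but its members are general epithelial genes such as Epcam, Cdh1 and Krt8. The mesenchyme factor Twist1 was at 40.9 to 67.8 CPM in forebrain, against 171 to 205 CPM in neural tube and the epithelial keratin Krt8 at 8.93 to 18.96 CPM in forebrain, against 15.9 to 31.01 CPM in neural tube, so neither was absent from forebrain, whereas Myf5, which founds the muscle lineage, had 0 counts in all 4 forebrain libraries. The part of these cells in the neural tube differences below was not tested, and in bulk tissue fewer cells of a type and less RNA per cell cannot be told apart.

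**Figure D1:**
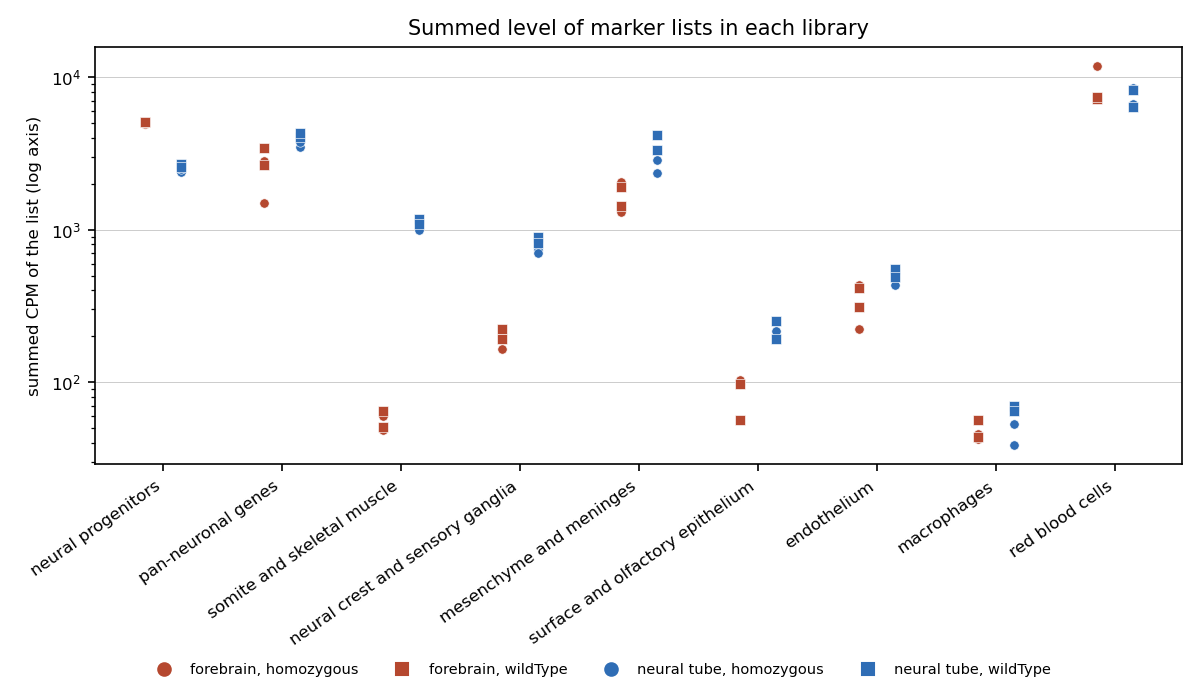
Summed CPM (log axis) of the marker lists of neural progenitors, neurons and non-neural cell types, 1 point per library, with forebrain left of neural tube for each list; circles are homozygous and squares wildType embryos. The somite and muscle sum was 48.9 to 64.4 CPM in forebrain, against 998 to 1180 CPM in neural tube, while red blood cell and macrophage sums overlapped.

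Of 15896 genes with enough counts, 5732 (36.1%) differed between the tissues in edgeR's quasi-likelihood test at a Benjamini-Hochberg adjusted p under 0.05. Forebrain was higher for 2668 genes (16.8%) and neural tube for 3064 (19.3%). The imbalance was larger among strong differences: at 2-fold or more, 654 genes (4.11%) were higher in forebrain and 1699 (10.7%) in neural tube, and at 4-fold or more 223 and 833. All 4 forebrain libraries exceeded all 4 neural tube libraries for 2377 genes (15.0%), and the reverse held for 2928 genes (18.4%). The median log2 fold change of forebrain over neural tube over all tested genes was 0.01. These percentages are the background for the counts of each gene group. Nothing in the labels says which libraries came from the same embryo, and the p-values measure the spread between these libraries. The paper collected a panel of tissues from its embryos, so forebrain and neural tube libraries may share embryos. The test treated all libraries as independent. Fold changes below are log2 of forebrain over neural tube, so positive values are higher in forebrain.

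Forebrain transcription factors stood mostly on the forebrain side. Of 40 listed factors 37 were tested, 32 were higher in forebrain, 3 were higher in neural tube, and the median log2 fold change was 4.21, against 0.01 over all genes. Their summed level was 2670 to 3010 CPM in forebrain, against 436 to 510 CPM in neural tube. Hesx1, Nkx2-4 and Six6 had too few counts in both tissues. For 30 of the 32 no forebrain library overlapped with a neural tube library. The count of factors higher in forebrain was 31 or 32 with any 1 library left out and 31 without both homozygous 1 libraries.

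Otx2 (GRCm38, chr14:48657677-48673819), which is needed for forebrain and midbrain, had 52.95, 52.03, 50.6 and 48.7 CPM in forebrain, against 0.456, 0.28, 0.842 and 0.309 CPM in neural tube (log2 fold change 6.75 ± 0.21 SE, adjusted p = 1.97e-08). Lhx2, a selector of cortical fate that also acts in the eye, had 504, 460.2, 458 and 540.3 CPM in forebrain, against 5.11, 9.01, 7.35 and 7.102 CPM in neural tube (log2 fold change 6.11 ± 0.16 SE, adjusted p = 6.51e-09). The forebrain libraries were close to each other for both genes and separated from neural tube without overlap, and Lhx2 kept a low level in neural tube, where it marks a dorsal interneuron class. Emx1, which marks the cortical primordium, had 55.3, 66.6, 49.3 and 79.4 CPM in forebrain, against 0.274, 0.056, 0.168 and 0.0515 CPM in neural tube (log2 fold change 8.72 ± 0.31 SE, adjusted p = 3.72e-08). Emx2, its relative, was also present in neural tube, with 87.04, 60.4, 75.2 and 93.5 CPM in forebrain, against 19.4, 24.3, 18.8 and 23.6 CPM in neural tube (log2 fold change 1.87 ± 0.15 SE, adjusted p = 7.76e-06). Emx2 was thus higher in forebrain in every library, but by far less than Emx1. Pax6, a regulator of cortical and spinal progenitors, behaved likewise, with 165, 134, 159 and 189 CPM in forebrain, against 31.3, 21.7, 20.3 and 19.4 CPM in neural tube (log2 fold change 2.81 ± 0.17 SE, adjusted p = 1.15e-06).

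Genes with almost no reads in neural tube gave ratios that rest on a few counts. Nr2e1, the Tailless receptor that maintains forebrain progenitors, had 181, 134, 179.8 and 169 CPM in forebrain, and its 2 neural tube counts gave a ratio of 6400 (95% counting interval 1770 to 52900). Fezf1, a repressor of the anterior forebrain, had 41.1, 44.3, 34.7 and 30.6 CPM in forebrain and no neural tube count, and was at least 963-fold higher in forebrain (floor of 3 counts over the 4 libraries). Its relative Fezf2 had 70.5, 50.3, 53.9 and 69.1 CPM in forebrain, and its ratio over 2 neural tube counts was 2350 (95% counting interval 651 to 19400). These genes were even among the forebrain libraries. Eomes, the factor of intermediate cortical progenitors, had 83.1, 83.3, 110.3 and 113 CPM in forebrain, and its ratio over 2 neural tube counts was 3770 (95% counting interval 1040 to 31100). Tbr1, which follows it in early cortical neurons, had 56.1, 102, 127 and 131 CPM in forebrain, against 0.0456, 0.168, 0.0561 and 0.206 CPM in neural tube (log2 fold change 9.71 ± 0.33 SE, adjusted p = 2.97e-08). Each of these 5 genes was at or near 0 in all 4 neural tube libraries. Of the other genes with at most 3 neural tube counts, Dlx6os1, a long RNA of the Dlx5 and Dlx6 locus, had a ratio of 2740 (95% counting interval 491 to 108000), Vax1, a ventral forebrain and optic factor, of 438 (95% counting interval 78.3 to 17400) and Dmrta2os, antisense to Dmrta2, of 115 (95% counting interval 39.1 to 561). Helt, Prok2 and Iqub had lower levels and ratios of 59.8 (95% counting interval 16.2 to 498), 25.9 (95% counting interval 6.87 to 219) and 12.9 (95% counting interval 4.13 to 64.9), and Iqub overlapped between the tissues.

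Ventral forebrain factors varied widely among the forebrain libraries. Nkx2-1, which specifies the medial ganglionic eminence and hypothalamus, had 16.4, 68.9, 59.4 and 1.59 CPM in forebrain and no neural tube count (at least 922-fold higher in forebrain over the group, adjusted p = 0.0054). WildType 2 and homozygous 1 were low and the other pair high. Lhx6, a target of Nkx2-1 in cortical interneurons, was low in the same pair, with 5.58, 18.6, 24.2 and 2.06 CPM in forebrain, against 1.82, 1.46, 1.46 and 1.801 CPM in neural tube (log2 fold change 2.94 ± 0.67 SE, adjusted p = 0.00669), and wildType 2 was close to the neural tube level. Dlx1 and Dlx2, which drive the formation of GABAergic neurons, were lowest in homozygous 1. Dlx1 had 34.8, 97.5, 111 and 61.6 CPM in forebrain, against 0.775, 2.57, 3.59 and 4.22 CPM in neural tube (log2 fold change 4.84 ± 0.43 SE, adjusted p = 1.66e-05). Dlx2 had 40.3, 94.3, 101 and 61.2 CPM in forebrain, against 2.83, 4.87, 4.94 and 3.65 CPM in neural tube (log2 fold change 4.19 ± 0.31 SE, adjusted p = 5.19e-06). Lhx2 and Otx2 stayed within narrower ranges in the same libraries.

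The 3 listed factors that were higher in neural tube also have roles in the trunk. Isl1, required for motor neurons, had 6.29, 18.3, 21.7 and 12.8 CPM in forebrain, against 46.4, 36.3, 44.2 and 42.4 CPM in neural tube (log2 fold change -1.53 ± 0.29 SE, adjusted p = 0.00217). Sim1, of a ventral spinal interneuron class and the hypothalamus, had 1.89, 3.33, 5.23 and 0.944 CPM in forebrain, against 9.896, 9.35, 9.43 and 9.83 CPM in neural tube (log2 fold change -1.76 ± 0.40 SE, adjusted p = 0.0064). Foxd1, which also marks mesenchyme, had 49.2, 31.7, 33.2 and 23.9 CPM in forebrain, against 92.9, 77.9, 82.04 and 68.2 CPM in neural tube (log2 fold change -1.24 ± 0.16 SE, adjusted p = 0.000239). None of the 3 overlapped between the tissues. Gsx1 and Otp did not pass the test.

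The genes named next had the largest fold change among called genes that did not overlap between the tissues and had at least 20 counts in the lower tissue. On the forebrain side 11 of these 12 were Wnt8b (8.06 ± 0.32 SE), Dmrta2 (7.04 ± 0.18), Six3os1 (6.81 ± 0.45), Otx2 (6.75 ± 0.21), Dmrta1 (6.22 ± 0.17), Lhx2 (6.11 ± 0.16), Rasgrp1 (5.57 ± 0.35), Stat4 (4.91 ± 0.29), Cntnap2 (4.88 ± 0.18), Tfap2c (4.85 ± 0.18) and Dlx1 (4.84 ± 0.43), with adjusted p at or below 1.66e-05. Wnt8b, a Wnt ligand of the cortical hem, had 115, 70.4, 75.4 and 119.9 CPM in forebrain, against 0.137, 0.504, 0.337 and 0.463 CPM in neural tube. Dmrta2, a doublesex-related factor of the cortical hem and medial cortex, had 170.1, 138, 113 and 149.8 CPM in forebrain, against 1.55, 0.839, 0.842 and 1.03 CPM in neural tube. Tfap2c, an AP-2 factor of cortical progenitors, had 74.4, 48.3, 55.3 and 71.3 CPM in forebrain, against 2.05, 2.41, 2.08 and 2.11 CPM in neural tube. Signalling genes were among them as well as transcription factors. Rasgrp1, an activator of Ras, had 23.8, 21.6, 29.7 and 26.7 CPM in forebrain, against 0.0456, 0.672, 0.954 and 0.566 CPM in neural tube, and Stat4, a transcription factor best known in lymphocytes, had 14.1, 10.3, 12.6 and 12.3 CPM in forebrain, against 0.41, 0.448, 0.617 and 0.154 CPM in neural tube. Cntnap2, a neuronal adhesion protein of the neurexin superfamily, had 161, 187, 194 and 219 CPM in forebrain, against 3.79, 6.94, 8.92 and 6.59 CPM in neural tube.

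On the neural tube side the same rule gave mostly genes of the somite and its derivatives. The 12 were Meox1 (-7.85 ± 0.31 SE), C1qtnf3 (-7.72 ± 0.18), Pax1 (-7.58 ± 0.34), Dmrt2 (-7.34 ± 0.37), Cdh15 (-7.33 ± 0.34), Aldh1a2 (-7.09 ± 0.41), Meox2 (-7.06 ± 0.34), Actc1 (-6.70 ± 0.32), Tnni1 (-6.59 ± 0.24), Casq2 (-6.48 ± 0.25), Myh8 (-6.25 ± 0.57) and Mybpc1 (-6.05 ± 0.26), with adjusted p at or below 2.01e-05. Meox1 and Meox2 are homeobox factors of the somite, Pax1 marks the sclerotome that forms vertebrae, and Dmrt2 acts in the dermomyotome. Pax1 had 0.378, 0.713, 0.135 and 0.0429 CPM in forebrain, against 77.4, 52.5, 60.7 and 47.2 CPM in neural tube. Actc1, the alpha-actin of embryonic muscle and heart, had 0.615, 2.99, 3.698 and 3.65 CPM in forebrain, against 253, 311, 296 and 263 CPM in neural tube. Tnni1, slow troponin I, had 0.189, 0.665, 0.586 and 0.858 CPM in forebrain, against 57.2, 63.6, 55.2 and 51.2 CPM in neural tube. In each of the 3 all neural tube libraries exceeded 47 CPM and no forebrain library exceeded 4 CPM. The somite and muscle marker sum was higher in the same libraries, as given above.

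**Figure D2:**
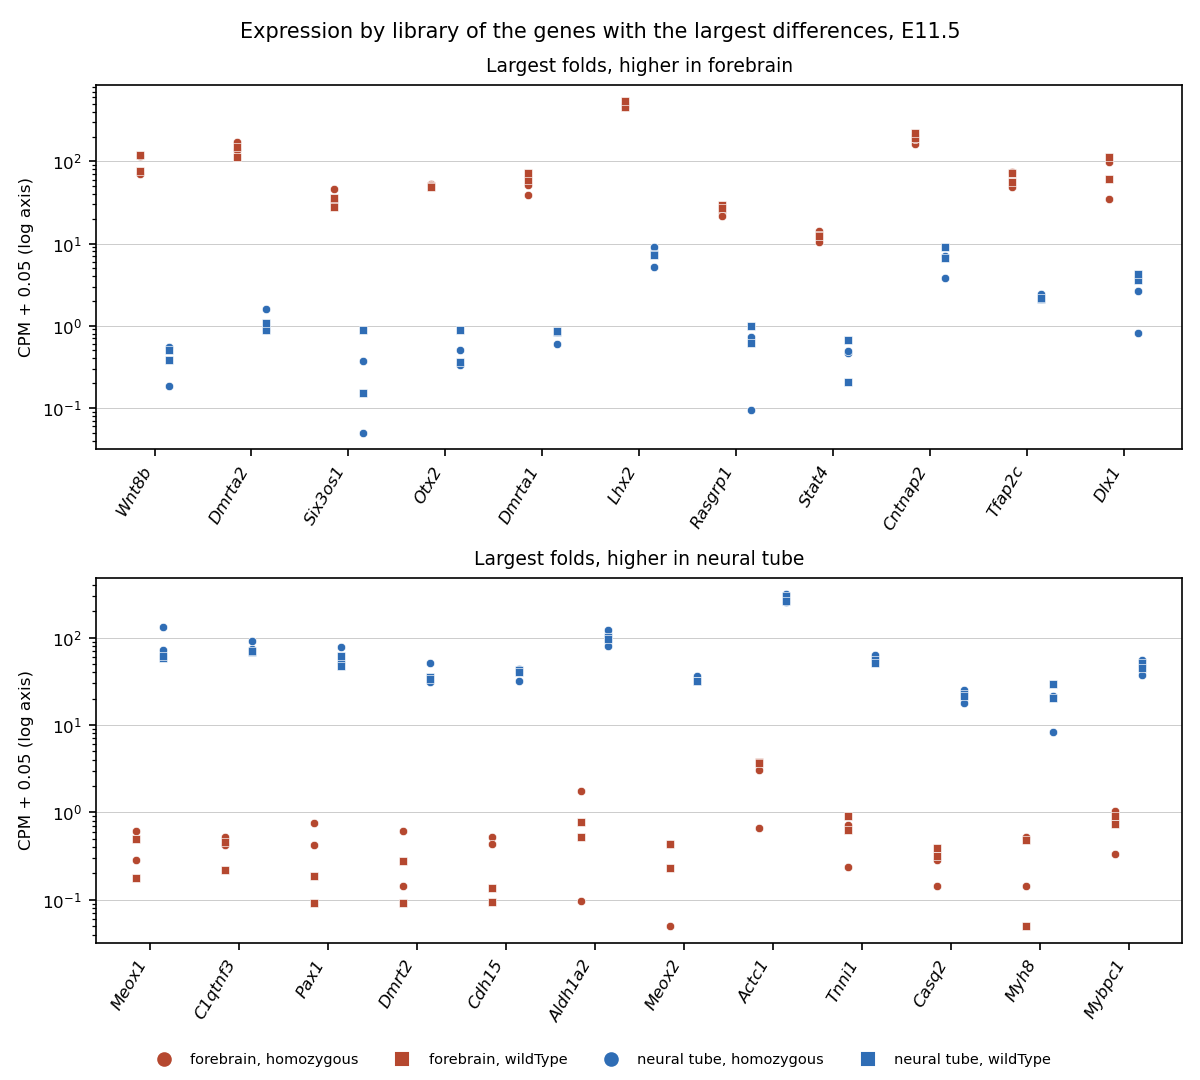
CPM + 0.05 (log axis) of 11 of the 12 genes with the largest fold change higher in forebrain and of the 12 higher in neural tube, 1 point per library, with forebrain left of neural tube for each gene; circles are homozygous and squares wildType embryos. Lhx2 sat at 458 to 540.3 CPM in forebrain and at 5.11 to 9.01 CPM in neural tube, and Actc1 at 253 to 311 CPM in neural tube and below 4 CPM in forebrain.

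Promoters of 4 of these genes are printed because a homeodomain core motif (TAATTA) or an E-box bound by muscle factors such as MyoD (CAGCTG) lies in them. Each runs 250 bases before to 50 bases after the transcription start in RefSeq's table for GRCm38.p6, 5′ to 3′ on the gene's strand, with the motif in capitals. Both motifs read the same on either strand and do not overlap each other. The windows are chr19:44493222-44493521, plus strand, for Wnt8b, chr14:48667595-48667894, minus strand, for Otx2, chr1:135799171-135799470, plus strand, for Tnni1 and chr10:88605103-88605402, minus strand, for Mybpc1.
Wnt8b: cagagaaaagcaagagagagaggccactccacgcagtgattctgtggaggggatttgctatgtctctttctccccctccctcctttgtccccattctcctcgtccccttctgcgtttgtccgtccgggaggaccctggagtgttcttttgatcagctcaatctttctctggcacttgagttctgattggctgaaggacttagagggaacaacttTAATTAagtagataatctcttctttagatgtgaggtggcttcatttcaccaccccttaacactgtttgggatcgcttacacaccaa
Otx2: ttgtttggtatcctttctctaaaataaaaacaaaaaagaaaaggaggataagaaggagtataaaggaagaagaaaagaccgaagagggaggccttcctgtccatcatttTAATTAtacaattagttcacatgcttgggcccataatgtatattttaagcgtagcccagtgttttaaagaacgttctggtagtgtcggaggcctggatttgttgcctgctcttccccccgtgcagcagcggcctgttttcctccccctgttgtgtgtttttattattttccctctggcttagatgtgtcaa
Tnni1: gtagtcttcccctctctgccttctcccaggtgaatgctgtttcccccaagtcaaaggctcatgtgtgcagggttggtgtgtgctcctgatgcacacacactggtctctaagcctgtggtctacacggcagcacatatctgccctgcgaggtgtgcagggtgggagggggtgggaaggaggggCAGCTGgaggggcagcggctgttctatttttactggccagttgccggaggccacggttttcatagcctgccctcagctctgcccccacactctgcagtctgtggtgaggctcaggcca
Mybpc1: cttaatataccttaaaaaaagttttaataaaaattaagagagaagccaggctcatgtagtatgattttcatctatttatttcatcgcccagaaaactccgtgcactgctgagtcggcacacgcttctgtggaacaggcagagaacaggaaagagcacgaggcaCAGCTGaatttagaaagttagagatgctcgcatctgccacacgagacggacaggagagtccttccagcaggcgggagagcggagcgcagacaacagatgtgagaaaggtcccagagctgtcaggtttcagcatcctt
RefSeq's table lists 4 promoters for Otx2 and 2 for Tnni1, against 1 each for Wnt8b and Mybpc1. For Otx2 and Tnni1 a promoter that holds a motif was picked for printing, and the others are not shown. In the printed windows Wnt8b carries TAATTA 36 bases and Otx2 141 bases before the start of that promoter. Tnni1 carries CAGCTG 68 bases and Mybpc1 87 bases before it. Over all 32851 promoters of the table, 5.29% hold TAATTA and 16.3% hold CAGCTG. Of 16 promoters of 10 of the 12 forebrain genes, 3 held TAATTA and 1 held CAGCTG, and of 12 promoters of 11 of the 12 neural tube genes, 1 held TAATTA and 3 held CAGCTG. A comparison over all called genes would be void, since only 74.1% of the tested genes have a promoter in the table, below the 80% set for such a check. A match is a description of these letters, not a bound site.

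**Figure D3:**
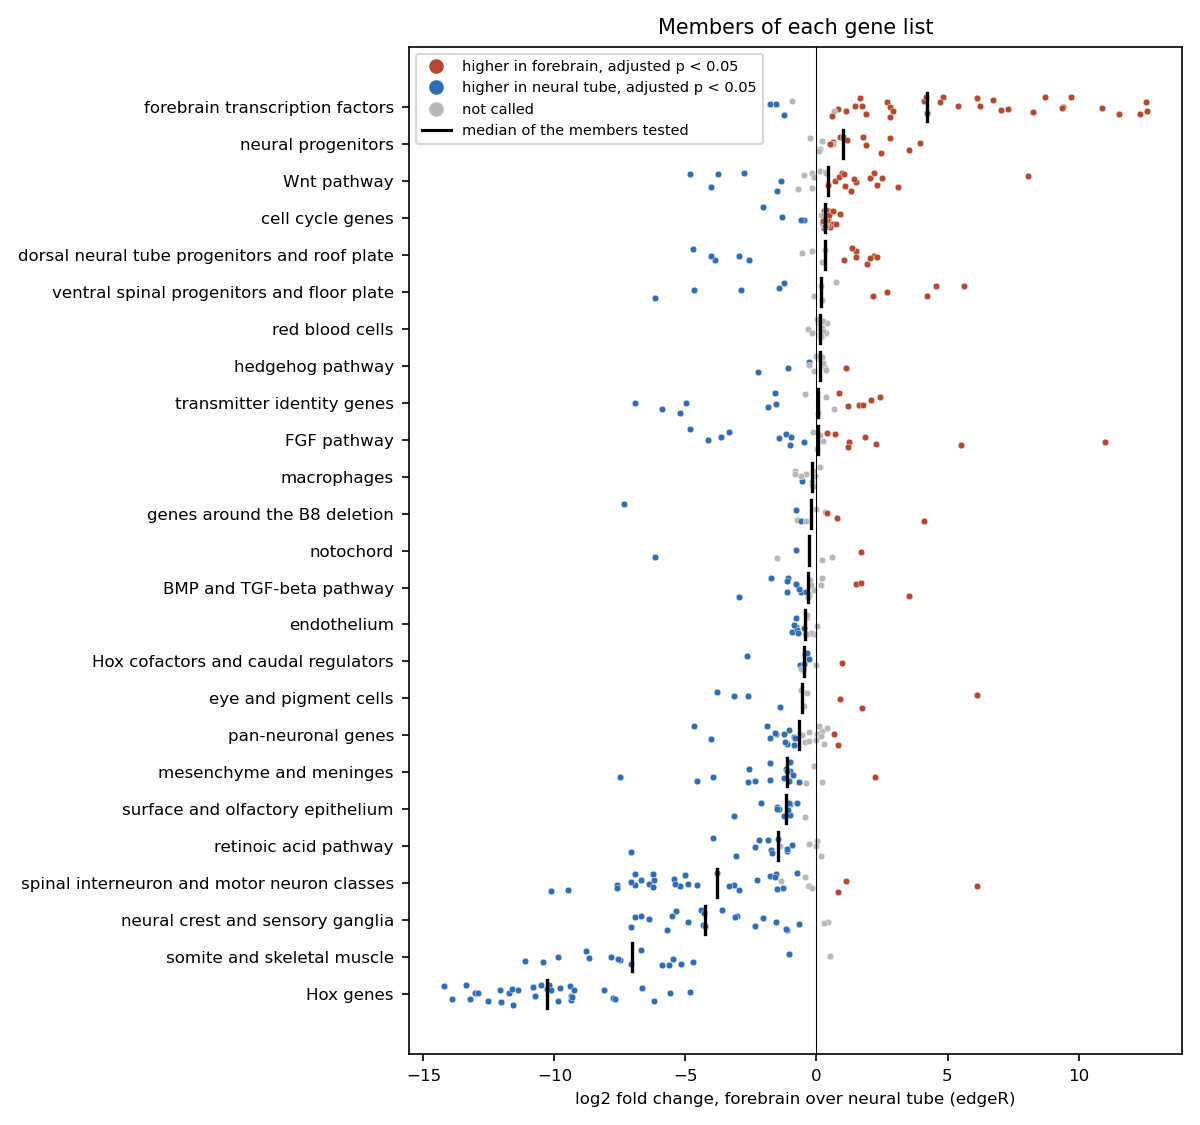
Log2 fold change of forebrain over neural tube for each tested member of the gene lists, 1 point per gene, with the list median marked; positive values are higher in forebrain. The forebrain transcription factors had a median of 4.21 and the Hox genes of -10.3, where folds of genes without counts in a tissue are fitted values and no bounds.

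The Hox genes separated the tissues on the neural tube side. All 33 tested Hox genes were higher in neural tube, with a median log2 fold change of -10.3, or -9.53 with the 16 that had no forebrain count set at their bound. Over all 39 Hox genes the 4 forebrain libraries held 68 counts in total, and the 4 neural tube libraries 112645. In forebrain 19 Hox genes had no count and 13 had 1 to 3. Summed TPM, the length-scaled unit as deposited, was 0.45, 0.68, 0.72 and 0.72 in forebrain, against 1290, 1120, 1300 and 1270 in neural tube. Each neural tube library exceeded each forebrain library by over 1000-fold in this sum, and 31 of the 33 tested genes did not overlap between the tissues.

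Within neural tube the level differed between clusters and along them. The Hoxb cluster summed to 521 ± 84.6 TPM (SD, n = 4), Hoxc to 333 ± 23.3, Hoxa to 311 ± 14.4 and Hoxd to 79.1 ± 11.8. The Hoxb sum was above and the Hoxd sum below the other clusters in every library, while the Hoxc and Hoxa sums lay within the spread of each other. The highest single genes were Hoxb9 (194 ± 38.8 TPM), Hoxa7 (127 ± 9.64 TPM), Hoxc6 (112 ± 6.199 TPM) and Hoxb8 (109 ± 16.3 TPM). The ranges of Hoxa7, Hoxc6 and Hoxb8 overlapped from each to the next. Members of paralogue groups 6 to 9, known for patterning the thoracic trunk, averaged 9.66 TPM (Hoxa6) to 194 TPM (Hoxb9), and those of groups 11 to 13, of the lumbar to tail region, at most 0.91 TPM (Hoxd11).

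In CPM, Hoxb9 had 0, 0.143, 0.0451 and 0 CPM in forebrain, against 391, 226, 299 and 310.4 CPM in neural tube (log2 fold change -12.53 ± 0.36 SE, adjusted p = 1.06e-08). Hoxa7 had 0 CPM in all 4 forebrain libraries, against 121, 124, 101 and 121 CPM in neural tube, at least 3420-fold higher in neural tube. Hoxc6 had 0 CPM in all 4 forebrain libraries, against 96.5, 90.9, 85.6 and 101 CPM in neural tube, at least 2740-fold higher in neural tube. No forebrain library came near any neural tube library for these 3 genes. Hoxb8 had 3 forebrain counts, and its ratio of neural tube over forebrain was 3640 (95% counting interval 1250 to 17700). Hoxa5, at cervical levels, was at least 1490-fold higher and Hoxc9 at least 1700-fold higher in neural tube. The other Hox genes with the highest levels and at most 3 forebrain counts were Hoxc8 (at least 1870-fold higher in neural tube), Hoxb6 (at least 1370-fold), Hoxc4 (ratio 6720 (95% counting interval 1210 to 266000)), Hoxa9 (2300 (95% counting interval 636 to 19000)), Hoxb7 (1520 (95% counting interval 420 to 12500)) and Hoxb2 (1100 (95% counting interval 377 to 5350)). The antisense transcript Hoxb5os, singled out after its values were seen, lies in the Hoxb cluster and had 17.3, 5.32, 10.2 and 12.9 CPM in neural tube and no forebrain count. Whether the counting used strand is not given in the sources used here, so reads of Hoxb5os and of the Hox genes it overlaps cannot be told apart.

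The posterior Hox genes varied widely between the neural tube libraries. Hoxa10 had 3.79, 30.9, 4.601 and 7.77 CPM in neural tube, and Hoxc10 had 4.196, 37.2, 0.505 and 3.65 CPM in neural tube. Homozygous 2 was far above the other neural tube libraries for both genes, and Hoxd10 was highest there too (0.775, 3.08, 0.224 and 1.03 CPM in neural tube). Hoxb1 had 7.75, 2.74, 2.81 and 3.09 CPM in neural tube and was highest in homozygous 1. Hoxd11 and Hoxd12 were called but overlapped between the tissues, since neural tube wildType 1 had 0 counts of each. The Hoxd11 call (adjusted p = 0.0204) was lost without any 1 of 4 single libraries, and the Hoxd12 call (adjusted p = 0.0449) was lost in DESeq2 and without any 1 of 6 single libraries. The number of Hox genes higher in neural tube was 31 to 33 with 1 library left out. Hoxa13, Hoxb13, Hoxc11, Hoxc12, Hoxc13 and Hoxd13 had too few counts to be tested.

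**Figure D4:**
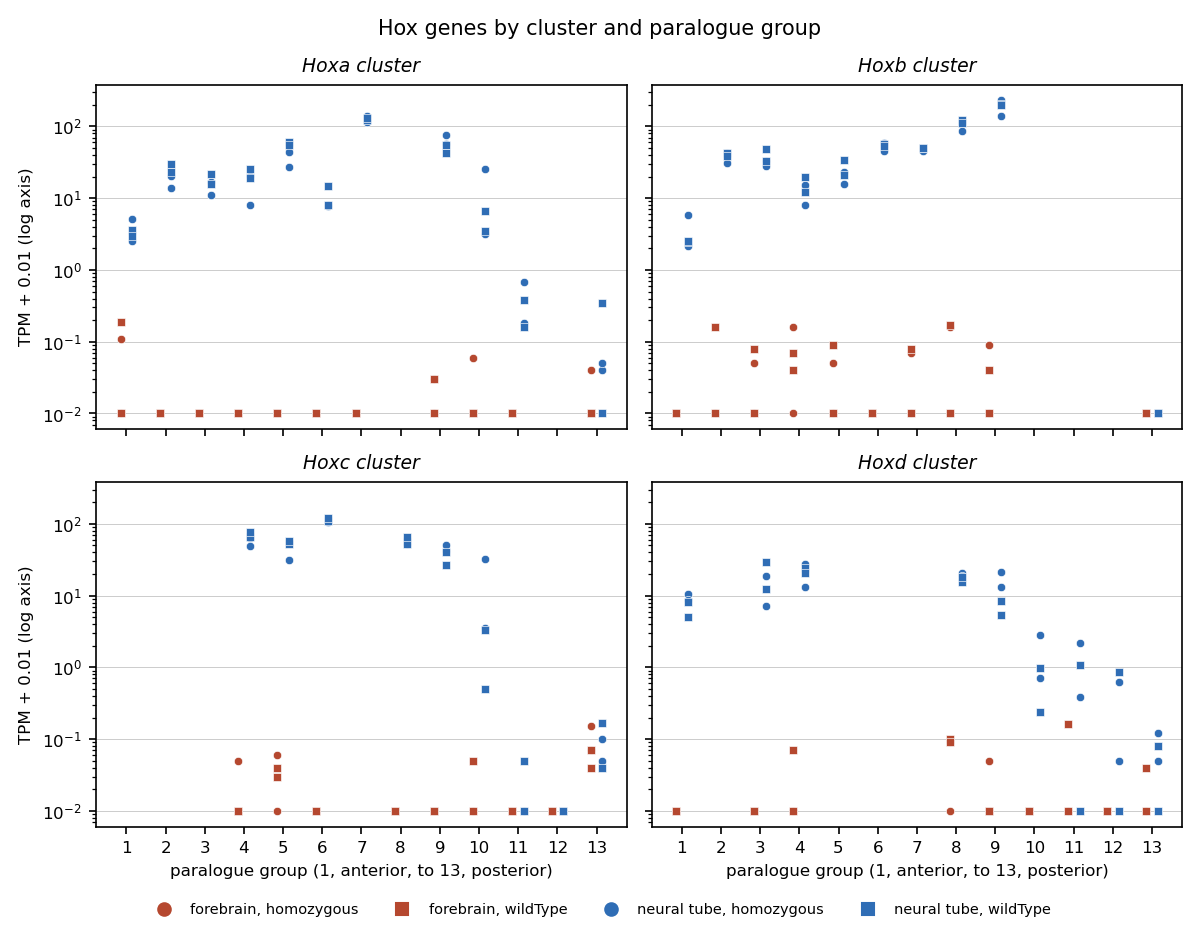
TPM + 0.01 (log axis) of the 39 Hox genes by cluster and paralogue group, 1 point per library, with forebrain left of neural tube; circles are homozygous and squares wildType embryos, and points at 0.01 are at 0. Hoxb9 averaged 194 TPM in neural tube, and no Hox gene exceeded 0.18 TPM in a forebrain library.

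The cofactors that bind DNA with Hox proteins differed far less. Of 11 tested members of this group 8 were higher in neural tube and 1 in forebrain, with a median log2 fold change of -0.48. Meis1, a homeodomain partner of Hox proteins, had 21.6, 23.7, 32.2 and 24.6 CPM in forebrain, against 140.1, 163, 175 and 157 CPM in neural tube (log2 fold change -2.64 ± 0.11 SE, adjusted p = 1.01e-07) and was the 1 member with a difference of 2-fold or more. Meis2 had 86.9, 109, 157 and 143 CPM in forebrain, against 179, 182, 196 and 188 CPM in neural tube (log2 fold change -0.62 ± 0.12 SE, adjusted p = 0.00243). Pbx4 was the member higher in forebrain, with 2.74, 4.704, 3.29 and 3.99 CPM in forebrain, against 1.41, 2.13, 1.91 and 2.01 CPM in neural tube (log2 fold change 0.99 ± 0.24 SE, adjusted p = 0.00972). Pbx2 had a log2 fold change of -0.02 ± 0.07 SE and did not pass the test (adjusted p = 0.877). The caudal genes Cdx1, Cdx2 and Cdx4, which turn on Hox genes in the tail bud, had too few counts to be tested in either tissue.

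Genes that mark spinal interneuron and motor neuron classes were mostly higher in neural tube: 29 of 37 tested, with 3 higher in forebrain and a median log2 fold change of -3.79. Their summed level went the other way, at 670 to 766 CPM in forebrain, against 523 to 555 CPM in neural tube. Most of the forebrain sum was Lhx2. Mnx1, the motor neuron factor, had 0 CPM in all 4 forebrain libraries, against 8.35, 5.43, 6.06 and 7.15 CPM in neural tube and was at least 200-fold higher in neural tube. Isl2, also of motor neurons, had 0.851, 0.475, 0.0902 and 0.558 CPM in forebrain, against 21.7, 19.2, 22.2 and 22.03 CPM in neural tube (log2 fold change -5.43 ± 0.33 SE, adjusted p = 1.42e-06). Slc18a3, the vesicular acetylcholine transporter, had 0, 0.095, 0.0902 and 0.215 CPM in forebrain, against 16.97, 12.2, 9.43 and 14.2 CPM in neural tube (log2 fold change -6.92 ± 0.42 SE, adjusted p = 1.27e-06). The 3 motor neuron genes were near 0 in each forebrain library and present in each neural tube library. Among interneuron factors, Lhx3 of V2a and motor neurons had 0.0473, 0.143, 0 and 0.0858 CPM in forebrain, against 12.5, 7.33, 10.2 and 10.2 CPM in neural tube (log2 fold change -7.08 ± 0.41 SE, adjusted p = 9.71e-07). En1 of the V1 class had 3.07, 1.76, 3.02 and 2.02 CPM in forebrain, against 23.5, 16.7, 15.5 and 20.4 CPM in neural tube (log2 fold change -2.94 ± 0.22 SE, adjusted p = 5.94e-06). Pax2 of inhibitory interneurons had 1.09, 1.52, 0.947 and 0.643 CPM in forebrain, against 10.5, 13.99, 16.3 and 17.5 CPM in neural tube (log2 fold change -3.79 ± 0.27 SE, adjusted p = 3.83e-06). Lbx1 of dorsal classes had 7.297, 8.84, 17.6 and 15.7 CPM in neural tube and a single forebrain count. Lhx2, Lhx5 and Lhx9 were the members higher in forebrain, where they have roles of their own.

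Some of these genes also mark sensory ganglia. Pou4f1, of sensory neurons and dorsal interneurons, had 1.23, 1.28, 2.44 and 1.89 CPM in forebrain, against 52.1, 50.4, 50 and 49.6 CPM in neural tube (log2 fold change -4.89 ± 0.17 SE, adjusted p = 3.35e-08). Tlx3, of the same cells, had 0.236, 0.095, 0.0902 and 0.129 CPM in forebrain, against 13.4, 15.5, 14.9 and 15.8 CPM in neural tube (log2 fold change -6.70 ± 0.25 SE, adjusted p = 4.77e-08). Ngfr, the low-affinity neurotrophin receptor of crest and ganglia, had 18.8, 12.97, 15.7 and 9.995 CPM in forebrain, against 188, 163, 175 and 173 CPM in neural tube (log2 fold change -3.61 ± 0.17 SE, adjusted p = 1.94e-07). Prph, the intermediate filament of peripheral neurons, had 0.236, 0.333, 0.0902 and 0.0429 CPM in forebrain, against 13.5, 10.1, 44.1 and 38.8 CPM in neural tube (log2 fold change -7.10 ± 0.48 SE, adjusted p = 2.8e-06), and its level was higher in the wildType than in the homozygous neural tube libraries. The groups did not overlap for any of the 4 genes. How much of the neural tube level of shared markers came from ganglia was not tested.

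Progenitor genes stood on the forebrain side. Of 17 neural progenitor genes 12 were higher in forebrain, 0 in neural tube and 5 did not pass, with a median log2 fold change of 1.02 and a summed level of 4970 to 5070 CPM in forebrain, against 2390 to 2690 CPM in neural tube. Sox2, which keeps progenitors undifferentiated, had 311, 285, 318 and 322 CPM in forebrain, against 86.9, 83.6, 84.2 and 81.2 CPM in neural tube (log2 fold change 1.88 ± 0.07 SE, adjusted p = 4.56e-08). Sox3 had 268, 246, 216 and 233 CPM in forebrain, against 57.9, 39.8, 37.5 and 38.8 CPM in neural tube (log2 fold change 2.47 ± 0.12 SE, adjusted p = 2.17e-07). Sox1, the third of this family, differed most, with 199.5, 183, 190 and 157 CPM in forebrain, against 15.6, 9.904, 12.6 and 8.75 CPM in neural tube (log2 fold change 3.96 ± 0.16 SE, adjusted p = 9.83e-08). All 3 were higher in every forebrain library than in any neural tube library, and among the neural tube libraries homozygous 1 was highest for each. Id4, an inhibitor of bHLH factors, had 282, 268, 251 and 267 CPM in forebrain, against 24.2, 25.01, 20.3 and 23.3 CPM in neural tube (log2 fold change 3.53 ± 0.08 SE, adjusted p = 4.87e-09). Hes5, the Notch target, had 78.3, 149.9, 104 and 99.5 CPM in forebrain, against 40.6, 33.2, 24.7 and 29.3 CPM in neural tube (log2 fold change 1.77 ± 0.18 SE, adjusted p = 4.9e-05), with the highest level in forebrain homozygous 2.

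Mir9-3hg, the host transcript of a copy of miR-9, a microRNA of neural progenitors, was singled out after its values were seen. It had 64.6, 86.1, 85.2 and 93.5 CPM in forebrain, against 15.8, 23.3, 22.9 and 29.2 CPM in neural tube (log2 fold change 1.86 ± 0.15 SE, adjusted p = 7.51e-06), and every forebrain library exceeded every neural tube library. The host spans chr7:79500026-79534403 on the plus strand, and the hairpin of Mir9-3 lies inside it (chr7:79505279-79505301 for the 5p arm, chr7:79505318-79505339 for the 3p arm, GRCm38.p6). The mature sequences, from RefSeq's table and shared by 3 gene copies, are shown with the seed (bases 2 to 8) in capitals, because the seed decides which transcripts are targeted.
mmu-miR-9-5p: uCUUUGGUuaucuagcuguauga
mmu-miR-9-3p: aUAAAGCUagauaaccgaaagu
The libraries measured long RNA, so the mature miRNA itself was not measured.

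Most cell cycle genes differed by small amounts. Of 26 genes 18 were higher in forebrain and 4 in neural tube, with a median log2 fold change of 0.34, and none of the 18 reached 2-fold. The 4 higher in neural tube were Ccnd3, Ccne1, Cdkn1a and Cdkn1c, of which Cdkn1a and Cdkn1c reached 2-fold. Cdkn1a was at 15.5 to 22.1 CPM in forebrain, against 44.4 to 52 CPM in neural tube. Cdkn1c, an inhibitor of cyclin-dependent kinases expressed from the maternal copy, had 259, 386, 295 and 214 CPM in forebrain, against 974, 1264, 1243 and 1263 CPM in neural tube (log2 fold change -2.05 ± 0.17 SE, adjusted p = 1.1e-05). The imprinted neighbours H19 and Igf2, singled out after their values were seen, were higher in neural tube too. H19, a growth-restraining long RNA, had 857, 713, 713 and 699 CPM in forebrain, against 4891, 6105, 5915 and 6147 CPM in neural tube (log2 fold change -2.95 ± 0.11 SE, adjusted p = 3.93e-08). Igf2, a growth factor made largely by mesoderm, had 552, 356, 503 and 459 CPM in forebrain, against 2724, 3506, 3822 and 3518 CPM in neural tube (log2 fold change -2.85 ± 0.14 SE, adjusted p = 3.44e-07). Cdkn1c, H19 and Igf2 were several-fold higher in each neural tube library. Mesenchyme marker sums were higher in the same libraries, as given above, and their part in these 3 differences was not tested.

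Genes shared by most neurons were unevenly split. Of 26 pan-neuronal genes 13 were higher in neural tube, 2 (Insm1 and Map2) were higher in forebrain and 11 did not pass, with a median log2 fold change of -0.68. The neurofilament genes, of long axons, led on the neural tube side. Nefl had 8.56, 21.2, 22.5 and 10.6 CPM in forebrain, against 368, 394, 397 and 439 CPM in neural tube (log2 fold change -4.67 ± 0.29 SE, adjusted p = 1.67e-06). Nefm had 22.4, 42.1, 53.98 and 29.4 CPM in forebrain, against 528, 575, 602 and 688 CPM in neural tube (log2 fold change -4.02 ± 0.23 SE, adjusted p = 9.46e-07). Neither overlapped between the tissues. Tubb3, the neuronal tubulin, had 442, 931, 915 and 781 CPM in forebrain, against 637, 647, 629 and 741 CPM in neural tube (log2 fold change 0.20 ± 0.19 SE, adjusted p = 0.44), and Elavl3, an RNA-binding protein of neurons, had 77.9, 113, 169 and 128 CPM in forebrain, against 109.9, 110.2, 117 and 112 CPM in neural tube (log2 fold change 0.08 ± 0.15 SE, adjusted p = 0.71). Both overlapped between the tissues and did not pass the test. The summed level of the list was 1495, 2836, 3422 and 2660 CPM in forebrain, against 3489, 3756, 4076 and 4315 CPM in neural tube, so forebrain homozygous 1 stood lowest. Without that library 5 genes of the list were higher in forebrain rather than 2, and Tubb3 was among them (0.40, adjusted p = 0.0079).

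Transmitter genes differed by type. Of 17 tested, 6 were higher in forebrain and 7 in neural tube, with a median log2 fold change of 0.06. Genes of GABA neurons were on the forebrain side. Gad2, which makes GABA, had 9.08, 23.4, 38.8 and 16.3 CPM in forebrain, against 2.098, 5.37, 6.51 and 6.69 CPM in neural tube (log2 fold change 2.10 ± 0.38 SE, adjusted p = 0.00195). Slc32a1, the vesicular transporter of GABA and glycine, had 7.23, 23.4, 22.3 and 11.9 CPM in forebrain, against 3.06, 4.81, 6.17 and 7.67 CPM in neural tube (log2 fold change 1.62 ± 0.37 SE, adjusted p = 0.00645), with forebrain homozygous 1 inside the neural tube range. Slc6a5, the glycine transporter of spinal inhibitory neurons, went the other way, with 0.0473, 0.095, 0.0902 and 0.0858 CPM in forebrain, against 1.46, 2.85, 3.14 and 3.397 CPM in neural tube (log2 fold change -4.98 ± 0.40 SE, adjusted p = 9.07e-06). Slc17a6, the vesicular glutamate transporter of most embryonic excitatory neurons, had 18.2, 33.3, 40.6 and 34.7 CPM in forebrain, against 9.12, 20.2, 27.8 and 23.6 CPM in neural tube and missed the threshold (adjusted p = 0.0524). The cholinergic genes Chat, Slc18a3, Slc5a7 and Ache and the catecholamine genes Ddc and Dbh were higher in neural tube.

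Dorsal and ventral progenitor genes split in both directions. Of 17 dorsal progenitor and roof plate genes 8 were higher in forebrain and 5 in neural tube (median log2 fold change 0.32). Pax3, of the dorsal spinal cord and also of somite and crest, had 3.97, 3.47, 1.13 and 2.83 CPM in forebrain, against 48.5, 40.7, 37.6 and 37.7 CPM in neural tube (log2 fold change -3.89 ± 0.23 SE, adjusted p = 1.14e-06). Msx3, confined to the dorsal neural tube, had 0.709, 1.33, 1.62 and 1.59 CPM in forebrain, against 33.02, 34.1, 36.8 and 32.6 CPM in neural tube (log2 fold change -4.70 ± 0.19 SE, adjusted p = 7.03e-08). Its relative Msx1 was on the other side, with 136, 78.97, 69.5 and 80.8 CPM in forebrain, against 33.9, 24.3, 18.7 and 19.7 CPM in neural tube (log2 fold change 1.92 ± 0.17 SE, adjusted p = 1.66e-05), and forebrain homozygous 1 was highest. Neurog2, a proneural factor of cortex and cord, had 91.01, 116, 136 and 156 CPM in forebrain, against 37.2, 35.1, 22.95 and 26.9 CPM in neural tube (log2 fold change 2.03 ± 0.20 SE, adjusted p = 3.13e-05). Gdf10, a ligand of the BMP family, had 9.64, 5.04, 7.08 and 6.43 CPM in forebrain, against 37.7, 62.3, 59.98 and 61.3 CPM in neural tube (log2 fold change -2.96 ± 0.22 SE, adjusted p = 4.92e-06). Paired relatives such as Msx1 and Msx3 were thus on opposite sides, without overlap between the tissues for either.

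Of 14 ventral progenitor and floor plate genes 5 were higher in each tissue (median 0.19). Olig2, which makes motor neuron progenitors in the cord and also marks the ventral forebrain, had 37.5, 62.95, 63.3 and 23.04 CPM in forebrain, against 4.29, 1.51, 0.898 and 1.29 CPM in neural tube (log2 fold change 4.57 ± 0.45 SE, adjusted p = 3.15e-05). It was lowest in neural tube wildType 1 and separated from every forebrain library. Nkx6-1, a ventral spinal factor, was at 0.472 to 3.36 CPM in forebrain, against 5.82 to 13.9 CPM in neural tube, and Irx3, of intermediate cord, at 13.03 to 24.9 CPM in forebrain, against 43.1 to 53.4 CPM in neural tube. Both were higher in neural tube without overlap. Shh, the ventral morphogen, was at 3.303 to 14.7 CPM in forebrain, against 6.54 to 13.04 CPM in neural tube and did not pass the test (adjusted p = 0.757). In the hedgehog pathway 1 of 13 tested genes was higher in forebrain, Gli3, which mainly represses its targets, with 219.7, 126, 171 and 199 CPM in forebrain, against 72.2, 82.6, 99.4 and 73.9 CPM in neural tube (log2 fold change 1.13 ± 0.16 SE, adjusted p = 0.00048). Boc, Hhip and Dhh were higher in neural tube, and 9 did not pass.

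The retinoic acid pathway was one-sided. Of 17 tested genes 12 were higher in neural tube and 0 in forebrain, with a median log2 fold change of -1.48. Aldh1a2, the enzyme that makes retinoic acid in somites, had 0.0473, 1.71, 0.722 and 0.472 CPM in forebrain, against 121, 80.6, 102 and 97.2 CPM in neural tube (log2 fold change -7.09 ± 0.41 SE, adjusted p = 8.98e-07). Dhrs3, an enzyme induced by retinoic acid that limits it, had 1.61, 1.43, 1.804 and 1.07 CPM in forebrain, against 24.6, 17.9, 25.98 and 22.9 CPM in neural tube (log2 fold change -3.95 ± 0.20 SE, adjusted p = 3.23e-07). Rarb, a receptor and direct target of the pathway, had 12.5, 8.41, 10.01 and 7.94 CPM in forebrain, against 56.9, 48.9, 42.1 and 47.6 CPM in neural tube (log2 fold change -2.33 ± 0.14 SE, adjusted p = 1.14e-06). These 3 were separated without overlap. Rara, a further receptor, had 28.3, 28.6, 24.6 and 27.4 CPM in forebrain, against 86.8, 82.9, 95 and 90.4 CPM in neural tube (log2 fold change -1.71 ± 0.08 SE, adjusted p = 3.18e-07). Stra6, a retinol uptake receptor, had 27.04, 21.9, 23 and 16.4 CPM in forebrain, against 90.9, 75.2, 76.3 and 74.8 CPM in neural tube (log2 fold change -1.85 ± 0.13 SE, adjusted p = 2.88e-06). Neither overlapped. Cyp26b1, which degrades retinoic acid, had 3.26, 5.08, 4.83 and 3.65 CPM in forebrain, against 11.2, 9.18, 21.6 and 15.7 CPM in neural tube (log2 fold change -1.72 ± 0.23 SE, adjusted p = 0.000313). Members of each role were thus higher in neural tube, while Aldh1a3, Crabp2, Cyp26a1, Rxra and Rxrb did not pass the test. Crabp1, a retinoic acid binding protein, had 102, 103, 56.3 and 46.97 CPM in forebrain, against 202, 214, 186 and 209 CPM in neural tube (log2 fold change -1.48 ± 0.17 SE, adjusted p = 9.51e-05), and its forebrain level was higher in both libraries labelled homozygous than in both labelled wildType, a direction that rests on the uncertain forebrain labels. Aldh1a2 is also expressed in somites and meninges, whose markers were higher in the same libraries by the sums above.

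FGF ligands sorted by tissue. Of 21 FGF pathway genes 8 were higher in forebrain and 9 in neural tube, with a median log2 fold change of 0.04. Fgf8, of the anterior neural ridge, had 9.17, 11.1, 7.13 and 3.99 CPM in forebrain, against 0.319, 0.056, 0.112 and 0.154 CPM in neural tube (log2 fold change 5.50 ± 0.38 SE, adjusted p = 2.96e-06). Fgf17, its close relative, had 37.9, 61.8, 35.4 and 22.6 CPM in forebrain and a single neural tube count. Fgf10, a ligand made by mesenchyme and by motor neurons, had 0.378, 0.333, 0.812 and 0.558 CPM in forebrain, against 6.57, 5.82, 7.01 and 6.12 CPM in neural tube (log2 fold change -3.63 ± 0.25 SE, adjusted p = 3.05e-06). Fgf8 and Fgf17 were lowest in forebrain wildType 2. Fgf15, a ligand of forebrain progenitors, was at 39.2 to 51.4 CPM in forebrain, against 6.98 to 15.1 CPM in neural tube and also higher in forebrain. Fgf5 (0.129 to 0.361 CPM in forebrain, against 3.79 to 8.28 CPM in neural tube), Fgf9 (0.284 to 1.37 CPM in forebrain, against 4.61 to 10.7 CPM in neural tube) and the receptor Fgfr4 (0.429 to 0.586 CPM in forebrain, against 5.701 to 14.7 CPM in neural tube) were higher in neural tube. The receptors Fgfr1 and Fgfr2 did not pass the test.

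Wnt signalling genes leaned to forebrain. Of 29 genes 15 were higher in forebrain and 6 in neural tube, with a median log2 fold change of 0.44. Beside Wnt8b, Wnt3a of the cortical hem had 20.1, 16.3, 16.6 and 23.98 CPM in forebrain, against 5.15, 4.64, 3.98 and 3.04 CPM in neural tube (log2 fold change 2.20 ± 0.20 SE, adjusted p = 1.66e-05). Wnt7b, a ligand of cortical neurons, had 313, 278, 280.1 and 277 CPM in forebrain, against 66.5, 74.3, 66.8 and 67.7 CPM in neural tube (log2 fold change 2.06 ± 0.07 SE, adjusted p = 3.35e-08). The R-spondins, secreted enhancers of Wnt signals, were higher in forebrain for Rspo1, Rspo2 and Rspo3, and lower for Rspo4. Rspo2 had 72.1, 58.2, 60.5 and 96.1 CPM in forebrain, against 6.66, 8.39, 9.82 and 8.75 CPM in neural tube (log2 fold change 3.10 ± 0.16 SE, adjusted p = 4.99e-07), and Rspo3 had 87.8, 78.02, 84.6 and 124 CPM in forebrain, against 12.3, 16.8, 19.9 and 16.8 CPM in neural tube (log2 fold change 2.51 ± 0.15 SE, adjusted p = 1.03e-06). Rspo1 had 82.5, 57.3, 55.5 and 89.8 CPM in forebrain, against 11.3, 15.2, 12.7 and 18.7 CPM in neural tube (log2 fold change 2.30 ± 0.20 SE, adjusted p = 1.49e-05). WildType 2 was the highest forebrain library for all 3. On the neural tube side, Wnt1 of the roof plate had 0.0946, 0.57, 0.271 and 0.429 CPM in forebrain, against 7.34, 5.204, 6.45 and 3.76 CPM in neural tube (log2 fold change -4.03 ± 0.40 SE, adjusted p = 3.62e-05), and Wnt4 had 12.1, 7.98, 4.42 and 7.29 CPM in forebrain, against 51.1, 58.9, 49.2 and 50.95 CPM in neural tube (log2 fold change -2.76 ± 0.20 SE, adjusted p = 3.92e-06). The general target Axin2 overlapped between the tissues, at 98.5 to 151 CPM in forebrain, against 86.5 to 103 CPM in neural tube, and did not pass the test.

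Of 21 BMP and TGF-beta pathway genes 11 were higher in neural tube and 3 in forebrain, with a median log2 fold change of -0.32. Nog, an antagonist of BMP, had 14.4, 17.3, 14.2 and 12.6 CPM in forebrain, against 2.46, 3.64, 7.07 and 5.71 CPM in neural tube (log2 fold change 1.70 ± 0.27 SE, adjusted p = 0.000788). It was higher in forebrain, together with Bmp6 and Id4. Bmp2, Bmp4, Bmp5 and their targets Id1, Id2, Id3, Smad6 and Smad7 were higher in neural tube, Id1 at 21.1 to 27.4 CPM in forebrain, against 48.8 to 58.01 CPM in neural tube. Of the Id family, whose members block bHLH factors, Id4 was thus on the forebrain side and Id1 to Id3 on the neural tube side.

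**Figure D5:**
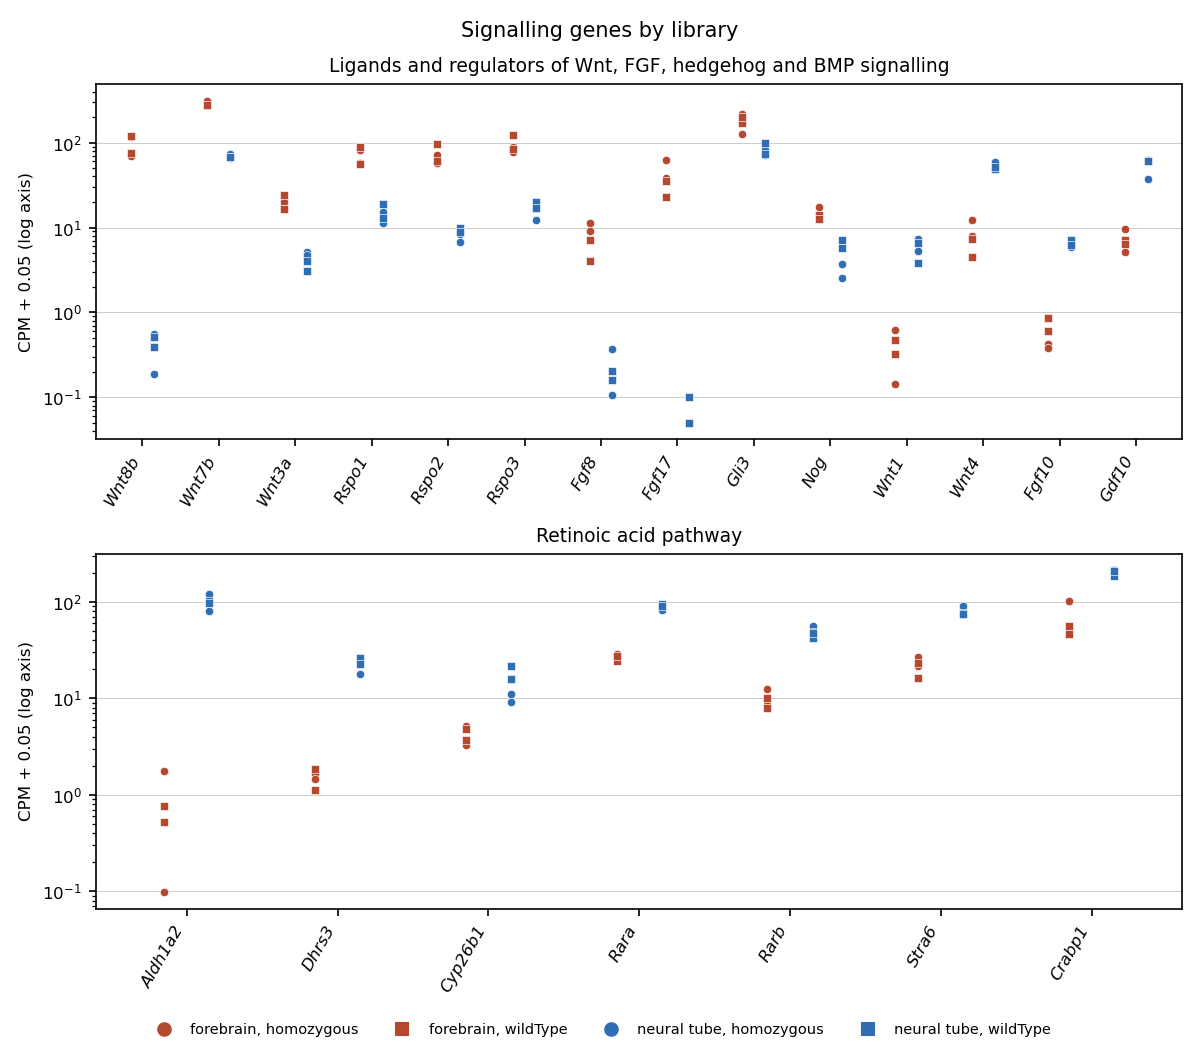
CPM + 0.05 (log axis) of signalling genes of the retinoic acid, FGF, Wnt, hedgehog and BMP pathways, 1 point per library, with forebrain left of neural tube for each gene; circles are homozygous and squares wildType embryos. Aldh1a2 stood at 80.6 CPM or more in neural tube and at most 1.71 CPM in forebrain, and Fgf8 and Rspo2 stood higher in all 4 forebrain libraries.

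The deleted boundary lies on chromosome 19 between Dmrt3 (chr19:25610301-25623921) and Dmrt2 (chr19:25672411-25678991, GRCm38, both on the plus strand), neighbouring doublesex-related transcription factor genes. Dmrt3 is known from the medial cortex and from a spinal interneuron class, and Dmrt2 from the dermomyotome. Dmrt3 had 47.7, 37.9, 38.3 and 52.4 CPM in forebrain, against 4.196, 3.08, 1.07 and 2.11 CPM in neural tube (log2 fold change 4.10 ± 0.28 SE, adjusted p = 3.06e-06). Dmrt2 had 0.567, 0.095, 0.226 and 0.0429 CPM in forebrain, against 51.4, 31, 35.3 and 33.5 CPM in neural tube (log2 fold change -7.34 ± 0.37 SE, adjusted p = 3.44e-07). The neighbours were thus on opposite sides, without overlap, in embryos with and without the boundary: each homozygous and each wildType library kept the order of its tissue. Dmrt1, the third gene of the cluster, had 0.0473, 0.808, 0.541 and 1.59 CPM in forebrain, against 0.319, 0.895, 0.617 and 0.463 CPM in neural tube and did not pass the test (adjusted p = 0.768). Of 10 genes around the deletion 3 were higher in forebrain (Dmrt3, Rfx3 and Vldlr) and 3 in neural tube (Dmrt2, Kank1 and Smarca2). The RefSeq promoters of the pair are shown because the boundary lies between them (GRCm38.p6, as above, CAGCTG in capitals). They lie at chr19:25610287-25610586, plus strand, and chr19:25672161-25672460, plus strand.
Dmrt3: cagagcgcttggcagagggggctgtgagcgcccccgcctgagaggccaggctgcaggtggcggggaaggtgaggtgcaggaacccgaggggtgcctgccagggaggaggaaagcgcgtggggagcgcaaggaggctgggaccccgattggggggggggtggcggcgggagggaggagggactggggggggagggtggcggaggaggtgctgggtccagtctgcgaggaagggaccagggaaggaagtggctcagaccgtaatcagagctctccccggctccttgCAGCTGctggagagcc
Dmrt2: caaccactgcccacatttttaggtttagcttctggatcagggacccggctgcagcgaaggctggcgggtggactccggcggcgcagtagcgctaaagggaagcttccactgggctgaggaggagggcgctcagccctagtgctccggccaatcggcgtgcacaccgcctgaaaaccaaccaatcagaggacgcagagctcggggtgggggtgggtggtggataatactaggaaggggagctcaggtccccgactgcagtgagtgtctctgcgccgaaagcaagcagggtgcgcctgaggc
Dmrt3 holds CAGCTG 34 bases after its start, and neither motif occurs in the Dmrt2 window.

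The difference between the tissues was compared between the genotypes by an interaction term. In edgeR 0 of 15896 genes (0.0%) passed, with 539 at an unadjusted p under 0.05 and a smallest adjusted p of 1. In counts simulated for this design, the test recovered 22% of interactions of log2 size 1 and 75% of log2 size 2. The absence of calls thus does not show that the tissue difference was the same in both genotypes. DESeq2 called 5 genes. The largest signals at unadjusted p were Pou3f2, a neural POU factor, and Prph. Pou3f2 had 69.7, 61.5, 92.5 and 90.7 CPM in forebrain, against 77.2, 71.1, 49.4 and 51.3 CPM in neural tube, higher in forebrain among libraries labelled wildType and lower among those labelled homozygous (interaction -1.04 ± 0.15 SE, unadjusted p = 8.72e-05, adjusted p = 1). Six2, a homeobox factor of head mesenchyme, had 67.2, 89.9, 60.6 and 51.3 CPM in forebrain, against 7.39, 4.48, 38.8 and 19.04 CPM in neural tube (interaction 2.76 ± 0.48 SE, adjusted p = 1). Neurog2 had an interaction of -1.03 ± 0.21 SE, Crym, a thyroid hormone binding protein, of 2.61 ± 0.52 SE, and Crabp1 of 0.91 ± 0.17 SE, each with an adjusted p of 1. If the genotype labels of the forebrain libraries are reversed, these interaction values do not hold as given.

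The 4 midbrain libraries of another line of the series, LocusB4 (2 homozygous for the deletion of boundary B4 and 2 wildType, embryonic day 11.5), allow levels to be set side by side on a common scale, with no test. Otx2 was at 48.6 to 53.2 CPM in forebrain, 125 to 147 CPM in midbrain and 0.281 to 0.849 CPM in neural tube, so it was highest in midbrain. Lhx2 was at 455 to 539.8 CPM in forebrain, 94.7 to 269.7 CPM in midbrain and 5.12 to 9.05 CPM in neural tube, so the midbrain libraries lay between the forebrain and the neural tube range. Sox1 was at 157 to 198 CPM in forebrain, 128 to 196 CPM in midbrain and 8.796 to 15.6 CPM in neural tube, near the forebrain level. Pax3 was at 1.12 to 3.95 CPM in forebrain, 37.9 to 80.5 CPM in midbrain and 37.9 to 48.6 CPM in neural tube, and Meis1 at 21.4 to 32.1 CPM in forebrain, 34.5 to 44.7 CPM in midbrain and 141 to 176 CPM in neural tube. Pax3 in midbrain thus overlapped the neural tube range, while Meis1 stood nearer to forebrain. En1, also of the midbrain-hindbrain border, was at 1.797 to 3.06 CPM in forebrain, 10.9 to 46.2 CPM in midbrain and 15.6 to 23.6 CPM in neural tube. The Hox genes had 277 counts over the 4 midbrain libraries. Line and tissue cannot be told apart for the midbrain values.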

How the data were processed

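Tissues of E11.5 embryos were dissected and total RNA was extracted with the Qiagen RNeasy kit by the authors, who mapped reads with STAR to mm10 and deposited, per library and GENCODE gene, RSEM expected counts and TPM. The expected counts deposited by the authors were rounded to whole numbers for the count test, and TPM as deposited was used only for levels between genes. The tables hold 69690 entries, of which 43346 Ensembl genes were used, while 26248 tRNA entries and 96 spike-in entries were left out. They held 0% of counts. Gene names and positions came from the GENCODE annotation of GRCm38. Library kit and strand setting are not given in the sources used here.

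Genes were kept by filterByExpr over tissue and genotype, normalized by TMM and fitted in edgeR 4.0.16 (R 4.3.3) with glmQLFit and glmQLFTest as genotype plus tissue, with Benjamini-Hochberg adjustment over all genes tested. CPM are scaled to the TMM library size. Scripts were tested on simulated data. The interaction of tissue and genotype was fitted separately. Genes named were up to 12 in each direction with the largest fold (no overlap, at least 20 counts in the lower tissue), up to 12 in each direction with the highest mean CPM among genes with at most 3 counts in the lower tissue, up to 8 called list members with the highest mean CPM and up to 4 others per list (members beyond these were chosen by role after their values were seen), genes around the deletion and the leading interaction genes, except where the text says that a gene was singled out after its values were seen. Counting intervals are 95% and, like the floor of 3 counts, cover counting error only. Some members that the rule names are counted in the totals and not reported here by name. The members and lists were chosen with earlier results of these data known. Alternatives were DESeq2 1.42.0, RLE size factors, no filter, no genotype term, a mean per tissue and genotype, each genotype alone, a joint fit with midbrain, a test against 2-fold (glmTreat), leaving out each library and, chosen after seeing the data, leaving out both homozygous 1 libraries.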

Additional observations from a re-analysis of the deposited data

Results flagged for a closer look

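In 274 groups of 4 values, 1 library lay far from the other 3 in 26 cases, where chance alone gives about 1 in 20 groups, or 13.7. The groups share the same libraries, and some genes were named after their values were seen. The 2 numbers are thus no test of chance. In neural tube homozygous 1, Meox2 was 36.3 CPM, Hoxb1 7.75, Sox3 57.9 and Stra6 90.9, each above the other neural tube libraries, and Dmrta1 was 0.547, Gdf10 37.7, Cdkn1c 974 and Myod1 14.2, each below. Forebrain homozygous 1 was highest for Msx1 (136 CPM), Wnt7b (313) and H19 (857). In neural tube homozygous 2, Hoxc10 was 37.2 CPM, Hoxa10 30.9, Tfap2c 2.41, Wnt7b 74.3, Gm42418 43380 and Lars2 4876, each highest, and Isl2 19.2, lowest. In that library the 10 most counted genes took 8.5% of counts, against 4.5 to 4.7% in the other neural tube libraries. In forebrain homozygous 2 they took 4.6%, against 3.9 to 4.0%, and red blood cell markers summed to 11860 CPM, against 7150 to 7438 CPM. In wildType 1, Hoxa7 in neural tube was low at 100.5 CPM and the epithelium marker sum in forebrain low at 56.5 CPM. In wildType 2, Tubb3 in neural tube was high at 741 CPM, and Ddx3y was 52.4 CPM in forebrain and 58.9 CPM in neural tube.

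Pou3f2 was ordered oppositely in the genotypes as labelled: both forebrain libraries labelled homozygous were below both homozygous neural tube libraries, and both forebrain libraries labelled wildType above both wildType neural tube libraries (log2 fold change over both genotypes 0.34). The interaction did not pass the adjusted test (adjusted p = 1), and the genotype labels of the forebrain libraries may be reversed.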

How the results depend on the processing

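Against 5732 genes called (2668 higher in forebrain, 3064 in neural tube), homozygous libraries alone gave 1665 (565 and 1100) and glmTreat against 2-fold gave 1247 (304 and 943). The second tests a stricter hypothesis, and the cause of the first was not tested. DESeq2 gave 5987 (2808 and 3179), wildType libraries alone 5133 (2316 and 2817), the joint fit with midbrain 6211, and the fit without both homozygous 1 libraries, chosen after seeing the data, 5992 (2696 and 3296). Leaving out 1 library at a time gave 4351 to 6133 genes, 1910 to 2970 higher in forebrain and 2441 to 3168 higher in neural tube. With 1 library left out, the forebrain factors higher in forebrain ranged over 31 to 32 and the Hox genes higher in neural tube over 31 to 33. Other alternatives gave fewer: the forebrain factors were 27 under glmTreat, 29 in homozygous libraries alone and 30 in wildType libraries alone. The Hox genes were 29 in wildType libraries alone and 30 in homozygous libraries alone. The interaction gave 5 genes in DESeq2, 6 without the filter and 0 to 3 with 1 library left out (3 without neural tube homozygous 1), against 0; the cause was not tested.

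The sign turned for Tubb3 without forebrain homozygous 2 (-0.02), Elavl3 in homozygous libraries alone (-0.21) and without forebrain wildType 1 (-0.06), and Pou3f2 in homozygous libraries alone (-0.17), none of them called in the full comparison. Without forebrain homozygous 1, Tubb3 (0.40) and Elavl3 (0.24) were called higher in forebrain. Of 111 named genes called, 1 was lost in DESeq2 (Hoxd12), 12 under glmTreat and 2 without both homozygous 1 libraries. Endothelium markers higher in neural tube were 5 rather than 8 without forebrain wildType 2. No paired analysis was possible because the labels of line B8 give no replicate numbers and no embryo shared between forebrain and neural tube, and the numbers used here only name libraries.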

Other observations

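Eye and pigment cell genes and vessel genes were not described above. Of 10 tested eye and pigment genes 3 were higher in forebrain and 4 in neural tube (median log2 fold change -0.55). The summed level of the list was 481 to 577 CPM in forebrain, against 44.4 to 86.6 CPM in neural tube, and most of the forebrain sum was Lhx2, also a forebrain factor, at 458 to 540.3 CPM in forebrain, against 5.11 to 9.01 CPM in neural tube. Dct, a pigment enzyme of the retinal epithelium, was at 6.81 to 12.1 CPM in forebrain, against 3.42 to 7.18 CPM in neural tube and was higher in forebrain, whereas Pmel, a pigment granule protein, was at 1.67 to 3.03 CPM in forebrain, against 4.06 to 7.63 CPM in neural tube and was higher in neural tube. Rax, of the eye field, was at 0.271 to 1.85 CPM in forebrain, against 0.103 to 0.449 CPM in neural tube. The lens crystallins Cryaa (8.66 to 16.7 CPM in forebrain, against 11.8 to 35.7 CPM in neural tube) and Crygb (0.0451 to 2.66 CPM in forebrain, against 1.44 to 3.31 CPM in neural tube) did not pass the test in these libraries and were present in both tissues.

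Of 14 endothelial genes 8 were higher in neural tube and 0 in forebrain, with a median log2 fold change of -0.45, and none reached 2-fold. Pecam1, a junction protein of vessels, was at 19.9 to 40.3 CPM in forebrain, against 53.7 to 68.3 CPM in neural tube (log2 fold change -0.95 ± 0.18 SE, adjusted p = 0.00235). Over 15 red blood cell genes the median difference was 0.15 on the log2 scale, and the embryonic globin Hbb-y was at 2533 to 4541 CPM in forebrain, against 2545 to 3363 CPM in neural tube. Of 11 macrophage genes 1 was higher in neural tube, Cx3cr1, at 5.18 to 7.85 CPM in forebrain, against 7.43 to 11.6 CPM in neural tube.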
